A study of Prunus domestica x Prunus domestica subsp. insititia with 6 samples.

Results

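In leaves of flooded plum trees, 84 genes were at least 2-fold above every control library in flooding replicates 1 and 2 but not above the controls in flooding replicate 3. They were chosen by their levels in all 6 libraries of the study, out of 16917 genes with enough reads to be tested and 26873 genes listed. On the log2 scale of CPM, read counts scaled to a common library size, both of the first flooded libraries had to exceed the highest control by at least 1, and flooding replicate 3 had to lie at or below that control. Their height in flooding replicates 1 and 2, and its absence in flooding replicate 3, is therefore what chose them and is given as a description only. The members are 0.497% of the tested genes.

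The plants were plum trees of the cultivar Julior (Prunus insititia x Prunus domestica), which the labels call tolerant of flooding. All were 10 months old, raised from cuttings and potted in orchard soil in a greenhouse. The 3 flooded samples came from plants whose soil lay under about 3 cm of water for 48 hours, and the 3 control samples from plants watered daily to field capacity. Each sample is RNA from leaf tissue, and whether each came from a plant of its own is not said. The design text of the series speaks of duplicates, whereas 3 samples per group are labelled.

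Water that fills the soil pores slows the supply of oxygen to roots, which then turn from respiration to fermentation. Leaves of a flooded plant usually stay in air, so that they respond mainly to what the roots send or withhold: water, hormones such as abscisic acid and the precursor of ethylene, nutrients and the demand for sugar. Stomatal closure, slower photosynthesis and the production of protective proteins are well-known responses of leaves to root flooding. The files give the genes as IDs without names or functions, and no annotation was used, so no role is given to any member. For the same reason the leaf label could not be checked against marker genes.

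Reads counted in genes totalled 11070986 to 12578205 in the flooded libraries and 13342964 to 15864206 in the controls. Over the tested genes, the correlation of log2 CPM was highest between control replicates 1 and 3 (r = 0.978), while control replicate 2 had r = 0.935 and 0.957 with them and r = 0.949 to 0.960 with the flooded libraries. Flooding replicate 3 had r = 0.957 and 0.945 with flooding replicates 1 and 2, and 0.957 to 0.960 with the controls. These correlations run over genes and not over samples. By them flooding replicate 3 was at least as close to each control as to either flooded library, and for control replicate 2 the correlations within the group and with the other group overlapped. In flooding replicate 2, 5.63% of listed reads fell outside the gene models, against 0.940% to 1.37% in the other 5 libraries; its part in the values below was not tested.

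Together the members held more of the leaf RNA than in any control in flooding replicates 1 and 2, and less in flooding replicate 3. Their summed abundance was 27115 CPM in flooding replicate 1, 13918 CPM in flooding replicate 2 and 1616 CPM in flooding replicate 3, against 2306, 3965 and 2181 CPM in control replicates 1 to 3. Flooding replicate 1 was thus 9.62 times and flooding replicate 2 4.94 times the control mean, whereas flooding replicate 3, at 0.574 times that mean, was below every control. Of all reads in tested genes, the members took 2.82%, 1.30% and 0.154% in flooding replicates 1 to 3, and 0.255%, 0.364% and 0.233% in control replicates 1 to 3. The sum averaged 14216 ± 12752 CPM in flooded and 2817 ± 996 CPM in control leaves (SD, n = 3 each), so the spread among the flooded libraries was nearly as large as their mean. RNA of whole leaves cannot tell more RNA per cell from more cells of a kind.

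Gene by gene the same division was seen. The median difference of the members from the control mean was 2.58 in flooding replicate 1, 2.35 in flooding replicate 2 and -0.57 in flooding replicate 3 on the log2 scale. The medians were -0.05, 0.35 and -0.38 in control replicates 1 to 3. Over all tested genes the medians of the 6 libraries lay within 0.03 of 0.

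**Figure D1:**
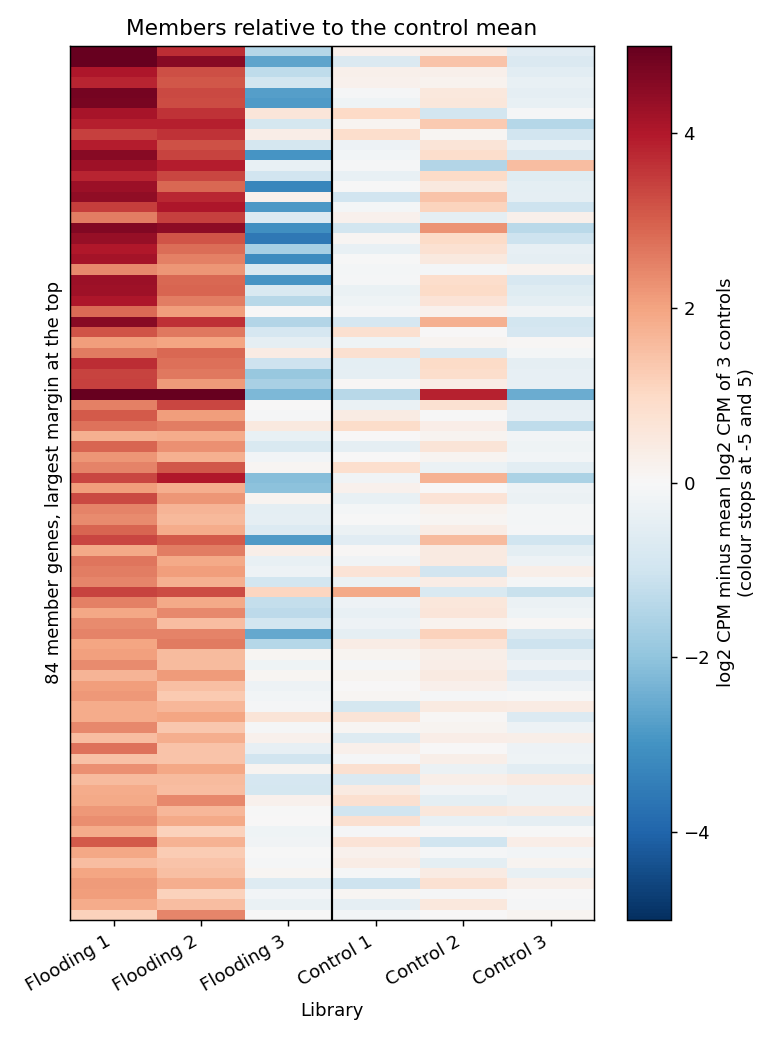
Log2 CPM of the 84 members in each library minus the mean log2 CPM of the 3 controls, 1 row per gene, ordered by margin (the lower of flooding replicates 1 and 2 minus the highest control) with the largest at the top. The first 2 columns are red throughout, flooding replicate 3 is blue or near white in most rows (median -0.57), and control replicate 2 is redder than the other controls in many rows.

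The member with the largest margin was Prupe.1G099500. It had 233, 86.0 and 2.34 CPM in flooding replicates 1 to 3, against 7.49, 8.31 and 4.36 CPM in control replicates 1 to 3, from 2701, 886 and 28 reads and 122, 121 and 62 reads. Flooding replicates 1 and 2 were 34.6 and 12.8 times the control mean, and flooding replicate 3 was below all 3 controls. The group means were 107 ± 117 CPM in flooded and 6.72 ± 2.08 CPM in control leaves (SD, n = 3 each), and edgeR's quasi-likelihood fit gave a log2 fold change of 3.99 (SE 1.28, adjusted p = 0.554).

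The second was Prupe.3G241700, which had 464, 226 and 0 reads in flooding replicates 1 to 3, against 7, 35 and 6 reads in control replicates 1 to 3. Scaled to depth this was 40.0, 21.9 and 0 CPM in the flooded libraries, against 0.430, 2.40 and 0.422 CPM in the controls. The absence of reads in flooding replicate 3 allows up to 0.251 CPM (3 counts in that library), so flooding replicate 1 was at least 159-fold and flooding replicate 2 at least 87.3-fold higher than flooding replicate 3. Control replicate 2 was the highest control, and without it the margin of this gene was 5.25 on the log2 scale, against 3.11 with all controls. edgeR's log2 fold change was 4.25 (SE 1.54, adjusted p = 0.5851), a fitted value that rests partly on the library without reads.

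A large share of the members' reads came from a few abundant genes. The 10 most abundant members made up 59.9%, 53.3% and 37.8% of the members' CPM in flooding replicates 1 to 3, and 40.5%, 50.2% and 40.4% in control replicates 1 to 3. The most abundant member had 2312, 1221 and 87.2 CPM in flooding replicates 1 to 3, against 127, 353 and 131 CPM in control replicates 1 to 3. The next had 2560, 1009 and 78.1 CPM in the flooded libraries, against 106, 259 and 88.0 CPM in the controls. In both genes flooding replicate 1 was highest, then flooding replicate 2, then control replicate 2, and flooding replicate 3 was lowest.

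The third had 2024, 731 and 46.6 CPM in flooding replicates 1 to 3, against 106, 196 and 87.8 CPM in control replicates 1 to 3. The fourth had 1443, 940 and 113 CPM in the flooded libraries, against 140, 302 and 165 CPM in the controls. The fifth had 1778, 802 and 9.71 CPM in the flooded libraries, against 69.9, 139 and 45.9 CPM in the controls. In the fifth, flooding replicate 3 stood 2.22 below the lowest control on the log2 scale, a deeper position than in the 4 members above it, where that distance ran from 0.17 to 0.91.

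The ninth had the lowest flooding replicate 3 relative to the lowest control among the 10, at 2.69 below it on the log2 scale. It had 1282, 408 and 8.04 CPM in flooding replicates 1 to 3, against 69.8, 99.4 and 52.5 CPM in control replicates 1 to 3. The seventh was the exception among the 10, since flooding replicate 3 lay within its controls: 1228, 578 and 135 CPM in the flooded libraries, against 95.3, 199 and 103 CPM in the controls. In each of the 10 members flooding replicate 1 exceeded flooding replicate 2, and control replicate 2 exceeded the other 2 controls.

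**Figure D2:**
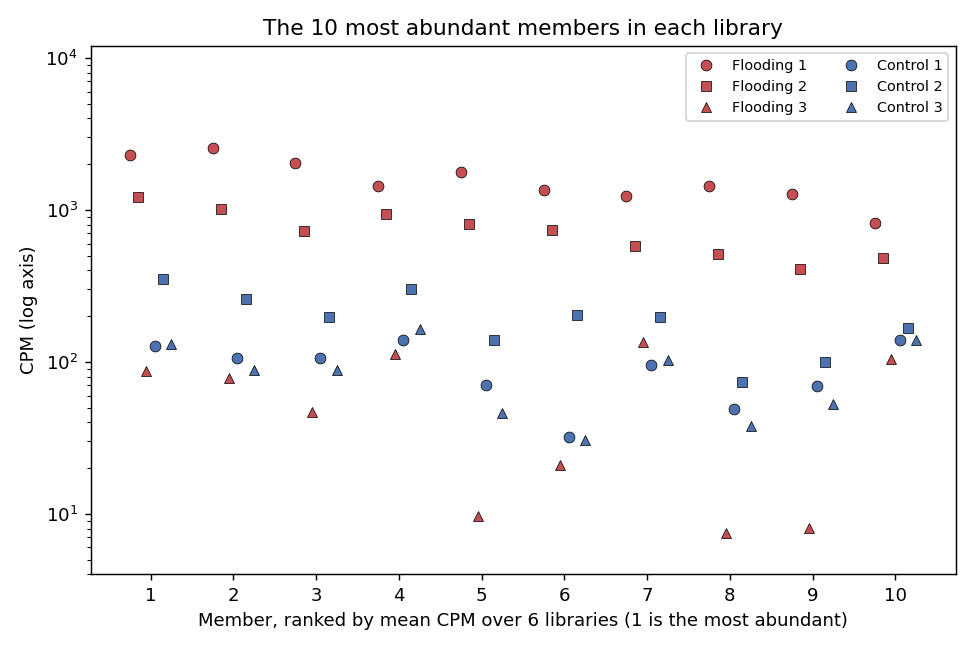
CPM (log axis) of the 10 members with the highest mean CPM over the 6 libraries, 1 point per library. Flooding replicate 1 is the highest point and flooding replicate 2 the next in all 10 genes, control replicate 2 is the highest control in all 10, and flooding replicate 3 is the lowest point in 9 of them, the seventh gene being the exception.

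The rule treats the 3 controls alike and flooding replicates 1 and 2 alike, so the order within each was not used to choose the members. Flooding replicate 1 was above flooding replicate 2 in 67 of the 84 members (79.8%), against 8552 of all tested genes (50.6%). Control replicate 2 was the highest control in 57 members (67.9%), control replicate 1 in 22 and control replicate 3 in 5, whereas over all tested genes control replicate 2 was highest in 42.4%, control replicate 1 in 35.1% and control replicate 3 in 22.5%. These shares are descriptions without a test, since the members share the same 6 libraries and are not independent of each other.

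The order of libraries was most uniform in abundant members. Of the 28 members whose mean reached 5 log2 CPM, flooding replicate 1 was above flooding replicate 2 in 27, control replicate 2 was the highest control in 26, and control replicate 3 was the highest in 0. Among all 5340 tested genes of that abundance the corresponding shares were 46.6% for flooding replicate 1 above flooding replicate 2 and 51.1% for control replicate 2 as the highest control. Of the 27 members with a mean of 3 to 5 log2 CPM, flooding replicate 1 was above flooding replicate 2 in 20 and control replicate 2 was the highest control in 19. Of the 29 members with a lower mean, the counts were 20 and 12. Counting error is larger relative to the level in those genes, and its part in these counts was not tested. They had medians of 12.2, 10.9 and 1.26 CPM in flooding replicates 1 to 3, against 2.27, 1.79 and 1.41 CPM in control replicates 1 to 3.

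The 1 abundant member with flooding replicate 2 above flooding replicate 1 also differed in its controls. It had 92.7, 101 and 39.9 CPM in flooding replicates 1 to 3, against 40.1, 26.6 and 16.0 CPM in control replicates 1 to 3. Its flooding replicate 3 lay just under its highest control, which was control replicate 1.

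Another member, of mean 3 to 5 log2 CPM, showed the widest gap between control replicate 2 and the other controls. It had 368, 308 and 1.17 CPM in flooding replicates 1 to 3, against 2.27, 91.2 and 0.984 CPM in control replicates 1 to 3. Control replicate 2 here was 5.78 above the mean of the other controls on the log2 scale, and flooding replicate 3 was near those other controls. Another member with control replicate 2 far above the other controls had 225, 202 and 0.921 CPM in the flooded libraries, against 4.66, 42.9 and 3.45 CPM in the controls. Its flooding replicate 3 was 1.75 below the lowest control on the log2 scale. Over the 84 members the median difference of control replicate 2 from the mean of the other controls was 0.52, against 0.04 over all tested genes. Its range in the members was -2.19 to 5.78.

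**Figure D3:**
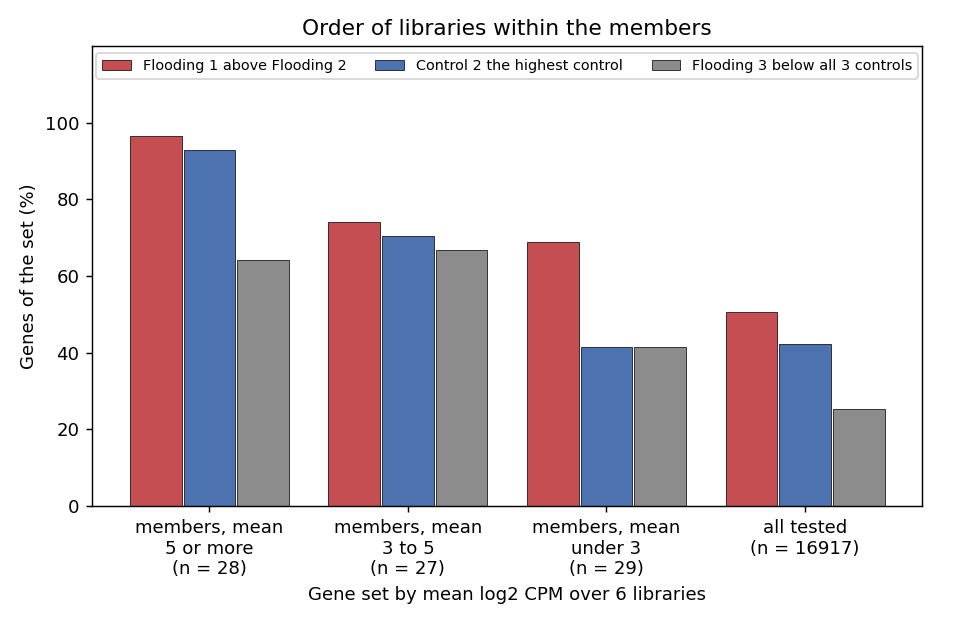
Share of genes in which flooding replicate 1 was above flooding replicate 2, control replicate 2 was the highest control, and flooding replicate 3 was below all 3 controls, for members in 3 classes of mean log2 CPM and for all tested genes. The 28 abundant members reach 96.4% and 92.9% on the first 2 measures, and the members of lowest abundance 69.0% and 41.4%. For all tested genes the third share (25.3%) also counts genes with flooding replicate 3 above the controls, which no member has.

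Flooding replicate 3 was often below the controls and not merely level with them. It was below all 3 controls in 48 of the 84 members (57.1%). Among the 12800 tested genes with flooding replicate 3 at or below the highest control, which the rule required of every member, that held for 33.5%. Flooding replicate 3 was at least 2-fold below the lowest control in 16 members (19.0%), against 1.69% of those 12800 genes, and at least 4-fold below it in 7 members (8.33%), against 0.297%. The members also varied more among the controls. The median range of the 3 controls was 1.02 on the log2 scale, against 0.43 over all tested genes, and its part in these shares was not tested.

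The position of flooding replicate 3 is given here by the size of the margin. Of the 23 members with a margin of at least 4-fold, flooding replicate 3 was at least 2-fold below the lowest control in 11. Of the 61 members with a smaller margin, it was so in 5. These counts are a description, as both measures share the control libraries.

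Most members had ample reads. Of the 84 members, 72 had at least 10 reads in every library. The fewest reads of any member were 32 in flooding replicate 1 and 37 in flooding replicate 2. The filter on reads and the rule's margin both favour such counts in these 2 libraries. Of the 48 members with flooding replicate 3 below all 3 controls, 29 had its exact 95% counting interval below that of every control. In 10 members flooding replicate 3 had under 10 reads, and in 2 of them it had no read. These intervals cover counting error only and not the spread between plants.

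A few members were next to each other in the order of IDs in the files. Of the 84, 8 had another member in the neighbouring row (9.52%), in 4 pairs, against 113 of all tested genes (0.668%). In one pair, the first gene had 1778, 802 and 9.71 CPM in flooding replicates 1 to 3, against 69.9, 139 and 45.9 CPM in control replicates 1 to 3, and its neighbour had 1429, 511 and 7.45 CPM, against 48.8, 73.6 and 38.0 CPM. Both genes of this pair had the same order of libraries. In another pair, the first gene had 305, 130 and 1.09 CPM in the flooded libraries, against 15.9, 28.4 and 7.03 CPM in the controls, and its neighbour had 32.8, 13.6 and 3.68 CPM, against 5.89, 4.94 and 4.08 CPM. Here control replicate 2 was the highest control in the first gene and control replicate 1 in its neighbour. Whether neighbouring IDs are near-identical copies, between which reads can be shared, is not known here, so such genes may not be separate observations.

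The comparison of the 2 groups over all 6 libraries weighs flooding replicate 3 like the others. In edgeR's quasi-likelihood test 0 of the 84 members passed an adjusted p of 0.05 as higher after flooding (smallest adjusted p = 0.514), against 0 (0%) of the tested genes. At an unadjusted p under 0.05, 58 members were higher, against 4.26% of the tested genes, a contrast the rule itself sets. DESeq2 called 6 members higher, against 0.598% of the 18055 genes with an adjusted p, edgeR's exact test 0, against 0.378%, and limma-voom 0, against 0%. These counts are a description too, since the rule chose the members on the same 6 libraries. The fitted log2 fold changes of the members ran from 0.99 to 4.25 with a median of 1.97. Their standard errors had a median of 0.78, against 0.23 over all tested genes. The rule itself favours this contrast, since it asks flooding replicate 3 to lie apart from the other flooded libraries. In a fit without flooding replicate 3, the log2 fold changes ran from 1.44 to 4.83, and 83 of the 84 were higher at an unadjusted p under 0.05, against 6.15% of the 17369 genes tested there. The rule sets this outcome too, since it chose the members on those libraries. At the adjusted threshold 0 members were called in that fit (smallest adjusted p = 0.0752), against 0 (0%) of those genes.

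The 6 members that DESeq2 called ranked from 7 to 65 by margin, where 1 is the largest. Their adjusted p-values are given as a description only, since the same 6 libraries chose the members. The smallest of the 6 adjusted p-values (DESeq2 adjusted p = 0.00598) belonged to a member with 28.1, 19.4 and 2.26 CPM in flooding replicates 1 to 3, against 3.01, 0.687 and 1.41 CPM in control replicates 1 to 3. In all 6, flooding replicate 3 lay within the range of the controls and not below it. The most abundant of them had 314, 187 and 44.6 CPM in the flooded libraries, against 42.7, 51.0 and 39.5 CPM in the controls.

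**Figure D4:**
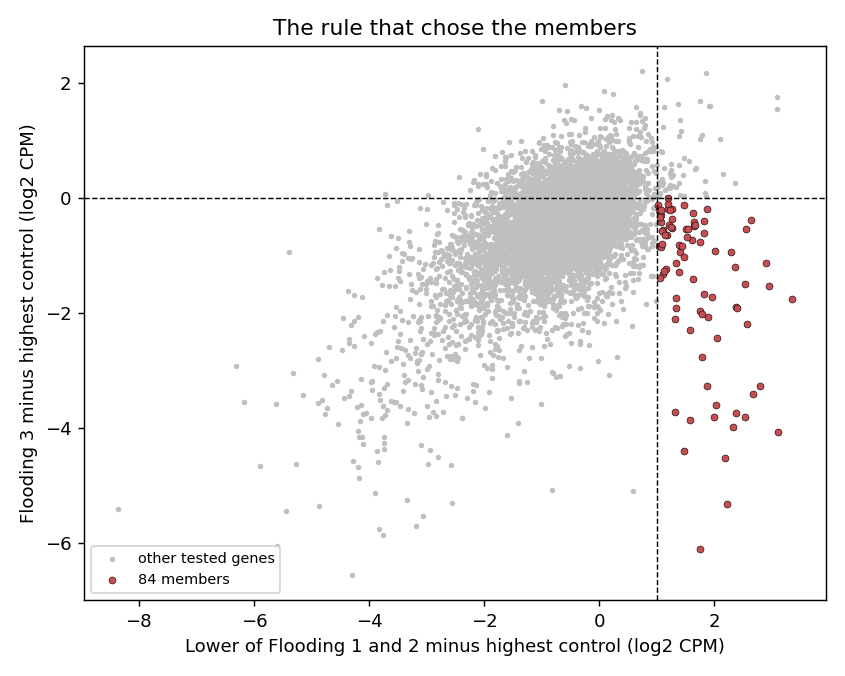
For each tested gene, the lower of flooding replicates 1 and 2 minus the highest control (horizontal) against flooding replicate 3 minus the highest control (vertical), both in log2 CPM; dashed lines mark the limits of the rule at 1 and 0. The 84 members (red) fill the lower right, where flooding replicate 3 reaches 6.11 below the highest control.

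The rule's limits cut through a continuous range. The member with the smallest margin had 1.02 and the nearest gene outside it 0.99, and 11 members lay within 0.1 inside that limit, with 11 genes within 0.1 outside. On the other limit, the nearest member had flooding replicate 3 at 0.01 below the highest control and the nearest gene outside at 0.03 above, with 1 member within 0.1 inside and 8 genes within 0.1 outside. Without control replicate 2 the rule gave 118 genes, 78 of them among the 84. With flooding replicate 1 alone in place of both, 176 genes met it, and with flooding replicate 2 alone 283. The rules with only flooding replicate 1 or only flooding replicate 2 ask less than the full one. Leaving out control replicate 2 eases the limit on flooding replicates 1 and 2 and can tighten that on flooding replicate 3.

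Flooding replicate 3 also divided the wider set of genes that were high in the other flooded libraries. Of the 139 genes that were at least 2-fold above every control in flooding replicates 1 and 2, 84 (60.4%) are the members. In 39 (28.1%) flooding replicate 3 was above every control by less than 2-fold, and in 16 (11.5%) by at least 2-fold. With flooding replicates 1 and 3 high and replicate 2 not, the same rule gave 3 genes (0.0177% of the tested genes), of 29 high in both. With flooding replicates 2 and 3 high and replicate 1 not, it gave 1 gene (0.00591%), of 25 high in both. The members were 0.497% of the tested genes. Flooding replicate 3 had fewer high genes of any kind: 322, 390 and 79 genes were at least 2-fold above every control in flooding replicates 1 to 3.

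For genes that were low in both flooded libraries the picture was different. Of 70 genes at least 2-fold below every control in flooding replicates 1 and 2, flooding replicate 3 was at or above the lowest control in 6 (8.57%), below every control by less than 2-fold in 25 and by at least 2-fold in 39. The difference between the upward and the downward genes was not tested, as genes of the same libraries are not independent replicates.

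**Figure D5:**
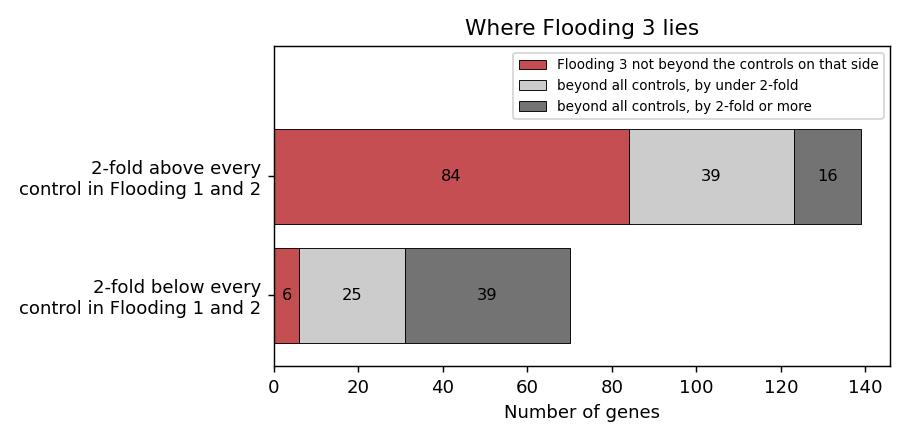
Number of genes at least 2-fold above (upper bar) or below (lower bar) every control in flooding replicates 1 and 2, divided by the position of flooding replicate 3. The 84 members are the red part of the upper bar of 139 genes; the red part of the lower bar holds 6 of 70 genes.

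The 16 genes at least 2-fold above every control in all 3 flooded libraries can be set beside the members. Their median difference from the control mean was 2.49, 2.19 and 1.89 in flooding replicates 1 to 3 on the log2 scale. Control replicate 2 was their highest control in 7 of 16 genes, against 57 of 84 members, and flooding replicate 1 was above flooding replicate 2 in 12 of 16 (75.0%), against 67 of 84 members (79.8%). The median log2 difference of control replicate 2 from the mean of the other controls was 0.52 in the members and 0.23 in the 16 genes. In the 39 genes between, where flooding replicate 3 was above every control by less than 2-fold, it was 0.11, and flooding replicate 1 was above flooding replicate 2 in 19 of 39. None of these differences between gene groups was tested.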

How the data were processed

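The deposited files hold raw read counts per gene, 1 library per file, with no normalization, as their whole numbers and differing totals show. Per the submitters' processing notes, FastQC 0.11.7, Trimmomatic, HTSeq 0.11.1 and edgeR 3.8 were used, with no step named. Libraries were made with a TruSeq RNA kit, per the labels' protocols. The aligner, reference genome and strand setting are not given in the sources, so near-identical, overlapping and antisense genes are uncertain. Library sizes and tests exclude the 5 closing rows that name no gene, which held 14.1% to 19.0% of a library's listed reads.

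R 4.3.3 and edgeR 4.0.16 were used. The filter was filterByExpr given the groups (minimum count 10, minimum total 15), followed by TMM scaling. Levels are CPM, or log2 CPM with a prior count of 2. Flooding was compared with control over all tested genes by the quasi-likelihood test of edgeR on the 6 libraries, without covariates. Benjamini-Hochberg adjustment was used, at an adjusted p of 0.05. The test prints no standard error (SE), so each was derived as the absolute log2 fold change divided by the square root of the test's F statistic. Alternatives were edgeR's exact test, DESeq2 1.42.0, limma 3.58.1 with voom weights, other scalings, filters, prior counts and margins, a block for the replicate number, and omission of single libraries. The fit and the rule were also run on simulated counts with planted differences, as a check of the code only, and no result here rests on that. As the labels do not say that samples are separate plants, p-values cover only the spread among the 6 samples, which may be technical.

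The members and descriptions were chosen with earlier results of these data known. The 2 members named by ID have the largest margins of the members averaging 1 log2 CPM or more; IDs are printed without their version suffix, and other members were picked by rank or after their values were seen. The gene lists and promoter motifs planned were not used, since IDs are not paired with names here.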

Additional observations from a re-analysis of the deposited data

Results flagged for a closer look

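Outside the counts used for genes, flooding replicate 2 had 5.63% of its listed reads outside the gene models, against 1.19% ± 0.164 in the controls (SD, n = 3), of which the highest had 1.37%. Flooding replicate 1 had 12.8% of its reads aligned to more than 1 place, against 10.9% ± 0.520 in the controls (SD, n = 3), of which the highest had 11.5%. Both values are above every control and more than 3 SD above the control mean. Both measures in the other flooded libraries are given next, and their part in the levels of the members was not tested. Reads outside the gene models were 1.11% in flooding replicate 1 and 0.940% in flooding replicate 3, not above the highest control. Reads aligned to more than 1 place were 10.8% in flooding replicate 2, within the controls, and 11.8% in flooding replicate 3, above every control.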

How the results depend on the processing

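The number of members was 84, and 77 to 112 under the other scalings, filters and prior counts and after thinning to the smallest total; 71 of the 77 genes found with library totals were among the 84. It was 171 with a margin of 1.5-fold, 23 with 4-fold, 48 with flooding replicate 3 at or below the lowest control, and 127 against the control mean (65 of them among the 84). Without 1 library it was 109 to 283, and 188 without both control replicate 2 and flooding replicate 2; the counts without a flooded library were chosen after the data were seen. The members' median log2 difference from the control mean was recomputed over changed members only for other margins. In flooding replicates 1 to 3 it was 1.92, 1.70 and -0.31 at 1.5-fold, and 4.16, 3.34 and -1.41 at 4-fold. All but the -0.31 moved by more than the SD of the 3 controls' medians (0.364). Under the other scalings, filters and prior counts, and without 1 control, it was taken over those of the 84 that passed the filter. There it moved by less than that SD, which does not cover a change of members. Over all tested genes, edgeR's quasi-likelihood test called 0 higher and 5 lower. The counts of higher and lower genes were 1 and 7 with upper quartile factors, 1 and 9 with library totals, 1 and 9 with no filter, 108 and 125 with DESeq2, and 64 and 89 with the exact test. In fits that lacked 1 library they ran from 0 to 26 and from 0 to 96, with both highest counts without control replicate 2. With the replicate block it was 0 higher and 0 lower. Deviations from the group means correlated between control and flooded samples of the same number with r = 0.06, 0.16 and 0.12. Between samples of unlike number r was lower, from -0.161 to 0.047. The numbers were not treated as pairs, since the first value is under 0.1 and the labels do not call them pairs. Whether they mark pairs was not tested. Members called were 0 in each of these fits but DESeq2 (6). The cause was not tested where none is named. At 3 samples per group, a difference seen in 2 flooded libraries has no further replicate check.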
